A study of Mus musculus with 20 samples.

Results

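The genes described here are 9 components of the type I interferon receptor pathway, among 19938 genes measured in implanted mouse tumors: the cytokine gene Ifnb1, the receptor chains Ifnar1 and Ifnar2, the kinases Jak1 and Tyk2, the transcription factors Stat2 and Irf9, and the inhibitors Usp18 and Socs1. They were listed by name, and each was read at its 1 probe set. All 9 of 9 listed genes were found. Usp18 stood apart from the others. Its level was higher on all 5 arrays of tumors given the IFNbeta vector alone than on any array of control tumors, and on none of the 5 arrays of tumors given p19Arf and IFNbeta together did it reach the lowest IFNbeta array. Of all genes, 0.552% were higher without overlap in the first comparison and 0.782% lower without overlap in the second. None of the 9 genes passed the test over all genes in any comparison.

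The tumors were LLC-1 tumors, implants of the Lewis lung carcinoma line, grown in C57Bl/6 mice and injected directly with adenoviral vectors. Each of 4 groups had 5 arrays: p19Arf together with IFNbeta, IFNbeta alone, p19Arf alone, and eGFP as the control vector. Every tumor in all 4 groups, the eGFP controls included, thus received adenovirus: 5 injections at intervals of 48 h, each of 25 µl and each carrying 8 log10 of virus in a unit the labels omit. The sources used here name neither the promoter of the vectors nor the species of their inserts. Titles number the tumors 1 to 5 in each group, and whether each came from its own mouse is not stated, so p-values measure the spread between these samples.

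Interferon beta is secreted by infected or stressed cells and binds a receptor of 2 chains, IFNAR1 and IFNAR2, which carry the kinases TYK2 and JAK1 on their inner side. These kinases phosphorylate STAT proteins, and STAT2 with another STAT and IRF9 forms ISGF3, a complex that enters the nucleus and switches on antiviral genes at interferon-stimulated response elements (ISREs). Among the genes it switches on are those of its own parts and of its brakes: USP18 sits on IFNAR2 and blocks the kinase bound there, besides taking a ubiquitin-like modifier off its targets, and SOCS1 inhibits the kinases directly.

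Levels are the deposited log2 values, and a difference of 1 between groups is a doubling. The standard deviation (SD) of all log2 values on an array, called the array spread here, was 1.99 to 2.12 on p19Arf+IFNbeta arrays, 2.04 to 2.15 on IFNbeta arrays, 1.999 to 2.13 on p19Arf arrays and 2.06 to 2.13 on eGFP arrays. The mean level of 7 skin epidermis markers was 9.20 on the array of IFNbeta replicate 3 and 6.74 to 7.73 on the other 19 arrays. The 7 markers of carcinoma epithelium had a mean level of 6.83 to 7.46 on p19Arf+IFNbeta arrays, 6.77 to 7.21 on IFNbeta arrays, 6.93 to 7.23 on p19Arf arrays and 6.90 to 7.17 on eGFP arrays. Skeletal muscle markers, 7 genes, had a mean level of 7.56 to 9.56 on p19Arf+IFNbeta arrays, 7.44 to 9.75 on IFNbeta arrays, 7.48 to 9.42 on p19Arf arrays and 7.46 to 8.24 on eGFP arrays, with means of 8.68 in p19Arf+IFNbeta, 8.65 in IFNbeta, 8.38 in p19Arf and 7.71 in eGFP tumors. Muscle content thus differed in mean in each comparison with eGFP, and none of the 9 genes correlated with it at an adjusted p under 0.05 (lowest 0.221 by Pearson and 0.192 by Spearman). Its part in those comparisons was not tested. The table carries no detection call, so absence of a marker could not be judged. In such bulk tissue, fewer cells of a type and less RNA per cell cannot be told apart.

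Ifnb1, the mouse interferon beta gene (probe set 10514285), was examined first because 2 of the groups received the IFNbeta vector. Its mean over the 20 arrays, 6.08, was low, above that of 15.9% of all genes. Each of the other members was above at least 70.6%. Whether its signal rose above background could not be judged, which limits all readings of this gene. Ifnb1 read 5.95, 5.90, 6.399, 6.07 and 5.81 on the p19Arf+IFNbeta arrays (replicates 1 to 5) and 6.10, 6.03, 6.65, 6.06 and 6.20 on the IFNbeta arrays. On the p19Arf arrays it read 6.00, 5.61, 6.16, 6.17 and 6.04, and on the eGFP arrays 6.25, 5.96, 6.10, 5.97 and 6.24. The 4 groups overlapped, and the arrays of replicate 3 were the highest in both groups that received IFNbeta. The difference of the 10 arrays with IFNbeta from the 10 without it was 0.07 (SE 0.09, 95% interval -0.12 to 0.26, exact permutation p = 0.51, limma adjusted p = 0.961). That of IFNbeta from eGFP was 0.10, and it was -0.0056 without IFNbeta replicate 3. The sources used here do not place the probes relative to the vector insert, so the gene does not check the labels.

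Marker scores of plasmacytoid dendritic cells, known as strong producers of type I interferon, and of skin were set beside the Ifnb1 level. With the mean level of 5 plasmacytoid dendritic cell markers, among them the interferon-induced gene Bst2, 8.17 to 8.44 on p19Arf+IFNbeta arrays, 8.304 to 8.596 on IFNbeta arrays, 8.15 to 8.45 on p19Arf arrays and 8.28 to 8.49 on eGFP arrays, its Pearson correlation was 0.703 over 20 arrays (permutation p = 0.00043, adjusted p = 0.00387). Spearman's rho was 0.636 (permutation p = 0.00287, adjusted p = 0.0203), and Pearson's r was 0.425 without the 2 arrays farthest from the median of that score. The 5 markers did not act alike: Ly6d was highest, at 8.396, on the array of IFNbeta replicate 3, where Ifnb1 was highest, and Ccr9 lowest, at 5.405, on that of p19Arf replicate 2, where Ifnb1 was lowest. Bst2, by contrast, was highest on that p19Arf array, at 10.927, so the score is not read as a level of that cell type. The Pearson correlation of Ifnb1 with the skin epidermis score was 0.694 over 20 arrays (permutation p = 0.00181, adjusted p = 0.0102; Spearman 0.525, permutation p = 0.018, adjusted p = 0.0616), and 0.361 with the 2 arrays of most extreme score dropped. The skin relation thus passed by Pearson alone and rests on those 2 arrays. Among all genes, the levels most like its own were those of Sh3rf2, Ppl, which encodes the epidermal plaque protein periplakin, and Tns4 (Pearson 0.83, 0.818 and 0.817 over 20 arrays). The part of skin in the Ifnb1 level was not tested.

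**Figure D1:**
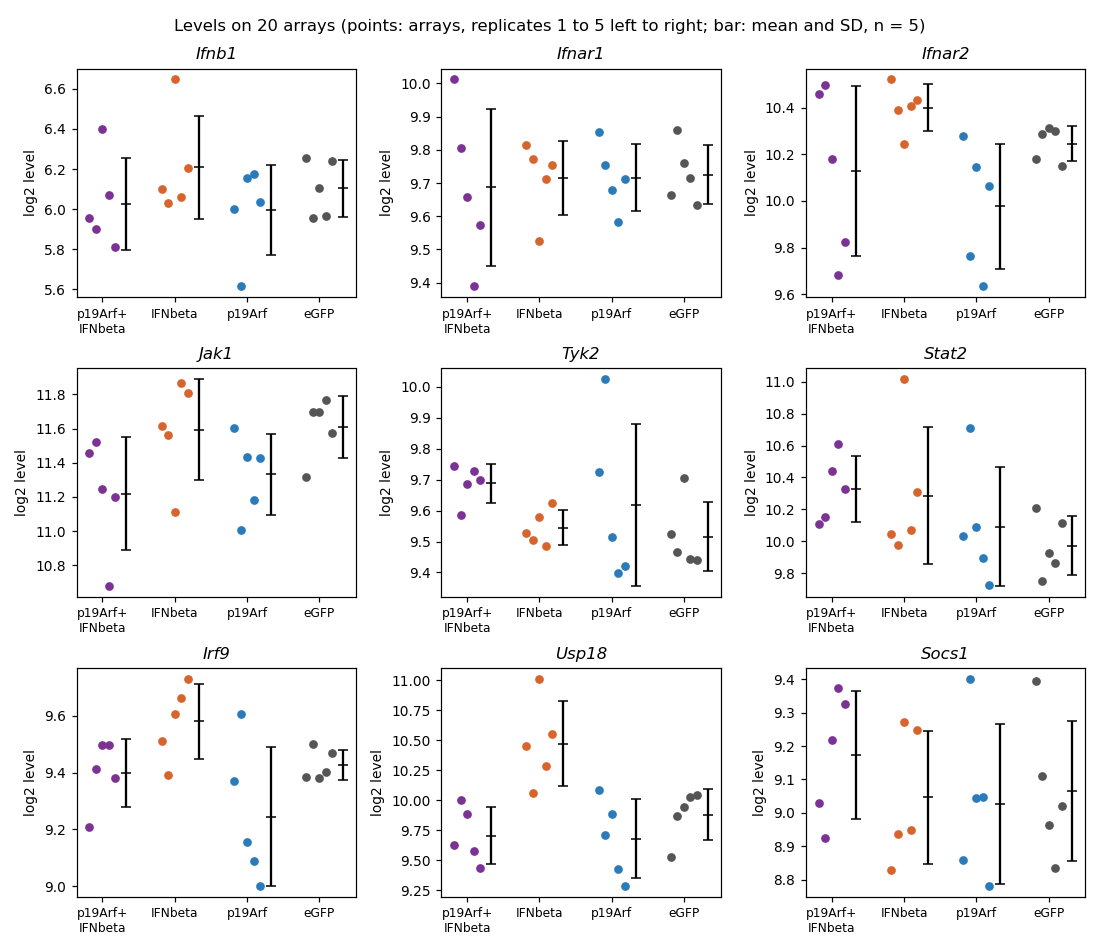
Log2 level of each of the 9 genes on each array (vertical axis, each panel with its own range) in p19Arf+IFNbeta, IFNbeta, p19Arf and eGFP tumors (horizontal axis). Points are arrays and bars are the mean and SD of 5. Usp18 on IFNbeta arrays lies at 10.06 to 11.01, above its 9.53 to 10.04 on eGFP arrays, and IFNbeta replicate 3 is the highest array for Ifnb1, Stat2 and Usp18.

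The receptor chain Ifnar2 (probe set 10436830), which binds JAK1 and the inhibitor USP18, read 10.46, 10.50, 10.18, 9.68 and 9.83 on the p19Arf+IFNbeta arrays and 10.52, 10.39, 10.25, 10.41 and 10.43 on the IFNbeta arrays. On the p19Arf arrays it read 10.28, 9.76, 10.15, 9.63 and 10.07, and on the eGFP arrays 10.18, 10.29, 10.32, 10.30 and 10.15. All but 1 of the IFNbeta arrays exceeded every eGFP array, and 4 of the 5 p19Arf arrays were below every eGFP array. Group means ran in the order IFNbeta, 10.40 ± 0.10, eGFP, 10.25 ± 0.08, p19Arf+IFNbeta, 10.13 ± 0.37, and p19Arf, 9.98 ± 0.27 (SD, n = 5 each), and neighbours in that order overlapped. The differences from eGFP were 0.15 in IFNbeta (SE 0.14, exact permutation p = 0.0317), -0.27 in p19Arf (SE 0.14, exact permutation p = 0.0397) and -0.12 in the combination (SE 0.14, exact permutation p = 0.508). Their limma adjusted p-values were 1, 0.661 and 0.687, so none passed. Adjusted for the array spread, the p19Arf difference was -0.056, and under quantile normalization it was -0.18.

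The other chain, Ifnar1 (probe set 10436849), which binds TYK2, differed little between the groups. Its means were 9.69 ± 0.24 in p19Arf+IFNbeta, 9.72 ± 0.11 in IFNbeta, 9.72 ± 0.10 in p19Arf and 9.73 ± 0.09 in eGFP tumors (SD, n = 5 each). The differences of the 3 vector groups from eGFP were between -0.04 and -0.0094, with 95% intervals that reached from -0.24 to 0.20. The combination held both the highest array of the series, replicate 1 at 10.01, and the lowest, replicate 4 at 9.39.

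Jak1 (probe set 10514668) encodes the kinase on IFNAR2, which other cytokine receptors use as well. It read 11.46, 11.52, 11.25, 10.68 and 11.20 on the p19Arf+IFNbeta arrays and 11.62, 11.56, 11.11, 11.87 and 11.81 on the IFNbeta arrays. The p19Arf arrays read 11.60, 11.01, 11.44, 11.18 and 11.43, and the eGFP arrays 11.31, 11.70, 11.70, 11.77 and 11.57. The combination was lower in mean than eGFP with 3 of its 5 arrays below all eGFP arrays, and the groups overlapped. The difference from eGFP was -0.39 (SE 0.16, 95% interval -0.71 to -0.07, exact permutation p = 0.0317, limma adjusted p = 0.238), and that from IFNbeta was -0.37 (SE 0.16, exact permutation p = 0.0952, limma adjusted p = 0.162). In p19Arf alone the difference from eGFP was -0.28 (exact permutation p = 0.0873, limma adjusted p = 0.661), and in IFNbeta alone it was -0.02.

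Jak1 levels followed the array spread more closely than those of any other of the 9 genes. Their Pearson correlation was 0.915 (permutation p = 1e-05, the smallest that 100000 permutations can give, adjusted p = 0.000495) and Spearman's rho was 0.925 (permutation p = 1e-05, adjusted p = 0.000742). Pearson's r was 0.909 once the 2 arrays of most extreme spread were dropped, and 0.887 between deviations from group means. Adjusted for the array spread, the Jak1 difference of the combination was -0.12 from eGFP and -0.08 from IFNbeta, and under quantile normalization it was -0.20 and -0.19. Without p19Arf+IFNbeta replicate 4, the array of lowest spread, it was -0.25 and -0.24. Without IFNbeta replicate 3 the second was -0.49 and passed (limma adjusted p = 0.041), where 2351 of all 19938 genes passed. The genes most like Jak1 were Ccna2, a cyclin of DNA replication, Sec23a, a coat protein of vesicles leaving the endoplasmic reticulum, and Prcp, a lysosomal peptidase (Pearson 0.981, 0.976 and 0.976 over 20 arrays).

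**Figure D2:**
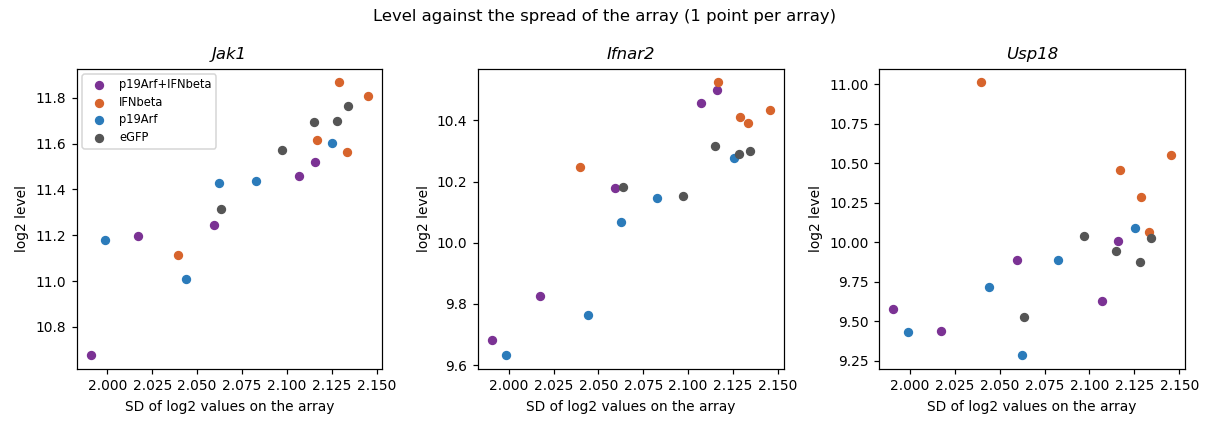
Log2 level of Jak1, Ifnar2 and Usp18 (vertical axes) against the SD of the log2 values of the same array (horizontal axes), 1 point for each of 20 arrays, coloured by vector group. Jak1 and Ifnar2 lie along a rising line (Pearson 0.915 and 0.879), while the Usp18 value of IFNbeta replicate 3, at 11.01, lies above all other arrays. For Usp18 the Pearson correlation was 0.46 and Spearman's rho was 0.618.

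The kinase on IFNAR1, Tyk2 (probe set 10591446), was at 9.69 ± 0.06 in p19Arf+IFNbeta, 9.54 ± 0.06 in IFNbeta, 9.62 ± 0.26 in p19Arf and 9.52 ± 0.11 in eGFP tumors (SD, n = 5 each). On 4 of the 5 arrays of the combination it was above all IFNbeta arrays. The difference of the combination was 0.14 from IFNbeta (SE 0.10, exact permutation p = 0.0159, limma adjusted p = 0.323) and 0.17 from eGFP (SE 0.10, exact permutation p = 0.0317, limma adjusted p = 0.366). Median centring gave 0.11 and quantile normalization 0.29 for the first of these. The array of p19Arf replicate 2, at 10.03, was the highest of the series and the 4 others of its group ran from 9.40 to 9.73.

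Stat2 (probe set 10367224), the STAT protein particular to ISGF3, read 10.11, 10.15, 10.44, 10.61 and 10.33 on the p19Arf+IFNbeta arrays and 10.05, 9.98, 11.02, 10.07 and 10.31 on the IFNbeta arrays. It read 10.03, 10.71, 10.09, 9.90 and 9.73 on the p19Arf arrays and 10.21, 9.75, 9.92, 9.87 and 10.11 on the eGFP arrays. The groups overlapped, and IFNbeta replicate 3 and p19Arf replicate 2 stood above the rest of their groups. Differences from eGFP were 0.35 in the combination (SE 0.18, 95% interval -0.02 to 0.73, exact permutation p = 0.0397, limma adjusted p = 0.306), 0.31 in IFNbeta (SE 0.18, exact permutation p = 0.151, limma adjusted p = 1) and 0.12 in p19Arf (SE 0.18, exact permutation p = 0.635, limma adjusted p = 0.82). Without IFNbeta replicate 3, whose skin score was the highest, the IFNbeta difference was 0.13. Adjusted for the array spread, the difference of the combination was 0.15.

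Irf9 (probe set 10415319) encodes the DNA-binding partner of ISGF3. It read 9.21, 9.41, 9.50, 9.50 and 9.38 on the p19Arf+IFNbeta arrays and 9.51, 9.39, 9.61, 9.66 and 9.73 on the IFNbeta arrays. The p19Arf arrays read 9.37, 9.61, 9.16, 9.09 and 8.999, and the eGFP arrays 9.38, 9.50, 9.38, 9.40 and 9.47. As with Ifnar2, 4 IFNbeta arrays exceeded every eGFP array, while 4 p19Arf arrays were below and 1 was above all of them. Means ran in the order IFNbeta, 9.58 ± 0.13, eGFP, 9.43 ± 0.05, p19Arf+IFNbeta, 9.40 ± 0.12, and p19Arf, 9.24 ± 0.25 (SD, n = 5 each), with overlap between neighbours. The difference from eGFP was 0.15 in IFNbeta (SE 0.10, exact permutation p = 0.0397, limma adjusted p = 1) and -0.18 in p19Arf (SE 0.10, exact permutation p = 0.135, limma adjusted p = 0.661). The combination differed from p19Arf by 0.15 (SE 0.10, exact permutation p = 0.23, limma adjusted p = 0.998). The interaction, this difference minus that of IFNbeta from eGFP, was 0.0005 (95% interval -0.30 to 0.30).

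Usp18 (probe set 10541307) showed the widest range of the 9 genes, 1.73 from the lowest to the highest array. It read 9.63, 10.01, 9.89, 9.58 and 9.44 on the p19Arf+IFNbeta arrays and 10.45, 10.06, 11.01, 10.29 and 10.55 on the IFNbeta arrays. The p19Arf arrays read 10.09, 9.72, 9.89, 9.43 and 9.28, and the eGFP arrays 9.53, 9.87, 9.94, 10.03 and 10.04. The IFNbeta arrays overlapped neither the eGFP arrays nor those of the combination, while the other 3 groups overlapped each other. Means were 9.71 ± 0.23 in p19Arf+IFNbeta, 10.47 ± 0.35 in IFNbeta, 9.68 ± 0.33 in p19Arf and 9.88 ± 0.21 in eGFP tumors (SD, n = 5 each).

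The Usp18 difference of the combination from IFNbeta was -0.77 (SE 0.17, 95% interval -1.11 to -0.42), a level 0.587 times that in IFNbeta, with an exact permutation p of 0.00794, the smallest that 5 arrays against 5 can give. It did not pass over all genes (limma adjusted p = 0.15). It was -0.57 with array weights (limma adjusted p = 0.0395), -0.70 adjusted for the skin score (limma adjusted p = 0.0291), -0.63 without the 2 arrays of highest skin score (0.0479) and -0.63 without IFNbeta replicate 3 (0.0377), and it passed in each of these. In the same settings 1730, 3130, 1497 and 2351 of all 19938 genes passed, in that order. The replicate 3 array thus had the highest Usp18 value and the highest skin score, and the difference kept its direction without it. Adjusted for the array spread it was -0.68 (limma adjusted p = 0.788).

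IFNbeta alone differed from eGFP by 0.59 in Usp18 (SE 0.17, 95% interval 0.25 to 0.94, 1.51-fold, exact permutation p = 0.00794, limma adjusted p = 1), and the value was 0.39 with array weights and 0.46 without IFNbeta replicate 3. Among tumors that received p19Arf, the combination differed from p19Arf alone by 0.03 (SE 0.17, 95% interval -0.32 to 0.37, exact permutation p = 0.897). The interaction, the second of these differences minus the first, was -0.57 (SE 0.23, 95% interval -1.05 to -0.08) and did not pass (limma adjusted p = 1). It ran from -0.67 to -0.43 when each array was left out in turn. The genes most like Usp18 were Cmpk2, a mitochondrial nucleotide kinase, Rsad2, the antiviral enzyme viperin, and Ifit1, which binds viral RNA (Pearson 0.958, 0.923 and 0.92 over 20 arrays, and 0.918, 0.835 and 0.851 for deviations from the group means).

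The other inhibitor, Socs1 (probe set 10437668), was at 9.17 ± 0.19 in p19Arf+IFNbeta, 9.05 ± 0.20 in IFNbeta, 9.03 ± 0.24 in p19Arf and 9.06 ± 0.21 in eGFP tumors (SD, n = 5 each). All pairs of groups overlapped. The differences from eGFP were 0.11 in the combination, -0.02 in IFNbeta and -0.04 in p19Arf (SE 0.13 each, exact permutation p = 0.413, 0.881 and 0.786). The Pearson correlation of the 2 inhibitors over 20 arrays was -0.103 (permutation p = 0.67, adjusted p = 0.754; Spearman -0.295, permutation p = 0.206, adjusted p = 0.393), and -0.472 without the 2 arrays farthest from the median of Usp18.

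**Figure D3:**
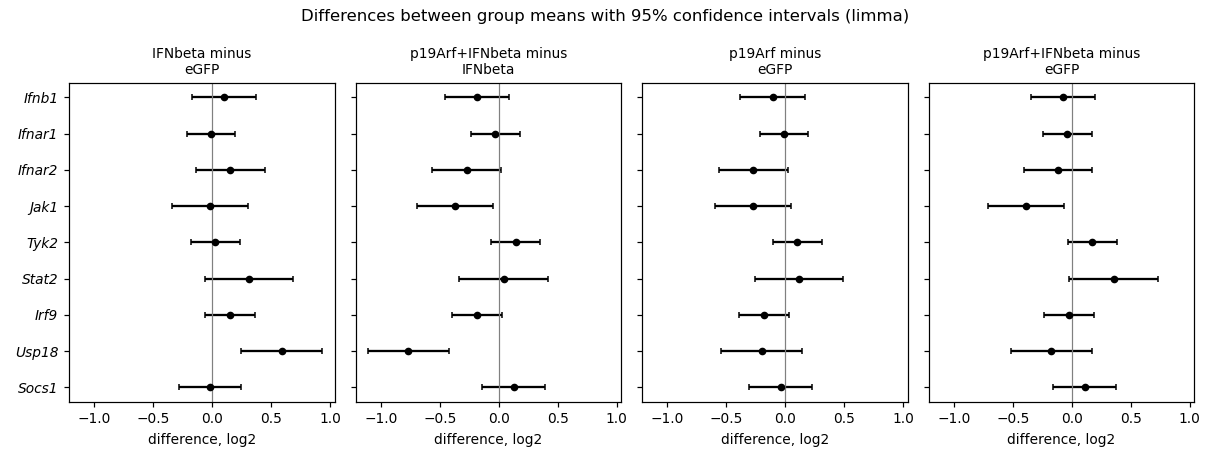
Differences between group means on the log2 scale (horizontal axes) for the 9 genes (vertical axis) in 4 comparisons. Points are limma estimates and bars are 95% confidence intervals. The intervals of Usp18 leave out 0 in IFNbeta minus eGFP (0.25 to 0.94) and in the combination minus IFNbeta (-1.11 to -0.42), and those of Jak1 leave out 0 in both comparisons of the combination shown.

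Read against all genes, the counts were small. None of the 9 genes passed at an adjusted p under 0.05 in the 7 comparisons, and neither did any of the 19938 genes (0% in each). Between IFNbeta and eGFP 1 gene, Usp18, was higher at a limma unadjusted p under 0.05, against 1.34% of all genes, and the same gene was the 1 without overlap, against 0.552%. None was lower at that level, against 1.45%. Between the combination and IFNbeta 2 genes, Usp18 and Jak1, were lower at an unadjusted p under 0.05, where 14% of all genes were, and Usp18 was the 1 that did not overlap, against 0.782%. None was higher without overlap, against 1.3%. Between the combination and eGFP 1 gene, Jak1, was lower at an unadjusted p under 0.05, against 11.4%, none was higher, against 6.18%, and none was lower without overlap, against 0.547%. Between p19Arf and eGFP 0 of the 9 were lower or higher at that level, against 4.4% and 2.84%, none was lower without overlap, against 0.441%, and between the combination and p19Arf 0 were, against 1.24% lower and 1.83% higher. In the 10 arrays with IFNbeta against the 10 without, 3 genes were higher at an unadjusted p under 0.05, against 2.77% of all genes: Stat2 at 0.27 (SE 0.13), Irf9 at 0.15 (SE 0.07) and Usp18 at 0.31 (SE 0.12). Their exact permutation p-values were 0.0558, 0.0631 and 0.102. For the interaction, Usp18 was the 1 gene lower at that level, against 0.492%, and none was higher, against 0.813%.

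As a set, the 9 genes had a median difference from eGFP of 0.10 in IFNbeta tumors, with 6 of 9 higher, beside a median of -0.017 and 44.2% higher over all genes. In p19Arf tumors the median was -0.11, with 2 of 9 higher, beside 0.02 and 54.4%. In the combination it was -0.04, with 3 of 9 higher, beside 0.02 and 55%. These 3 comparisons share the eGFP arrays. All members but Ifnb1 had means above at least 70.6% of all genes, so all genes are not a background of like level. The mean array spread was 2.06 in p19Arf+IFNbeta, 2.11 in IFNbeta, 2.06 in p19Arf and 2.11 in eGFP tumors. Adjusted for it, the p19Arf difference from eGFP went from -0.28 to -0.03 in Jak1 and from -0.18 to -0.19 in Irf9. The part of the spread in these medians was not tested. Without IFNbeta replicate 3, 7 of 9 were higher in IFNbeta tumors than in eGFP tumors and the median was 0.10.

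The genes that ISGF3 switches on, listed with earlier results of these data known, were set beside its components. Of 30 such genes listed 28 were measured, and 28 had a higher mean in IFNbeta than in eGFP tumors, with a median difference of 0.37. All 28 had a lower mean in the combination than in IFNbeta tumors (median -0.34), 14 were higher and 14 lower in the combination than in eGFP (median 0.02), and 20 were higher in the combination than in p19Arf (median 0.09). Over all genes the median was -0.017 with 44.2% higher for the first comparison, 0.05 with 57.1% higher for the second, 0.02 with 55% higher for the third and -0.0091 with 46.9% higher for the last. The mean array spread was 2.06 in p19Arf+IFNbeta and 2.11 in IFNbeta tumors, and its part in these counts was not tested. No gene of the list passed over all genes. At a limma unadjusted p under 0.05, 19 were higher in the first comparison, against 1.34% of all genes, and 16 lower in the second, against 14%. Without IFNbeta replicate 3, 28 were higher in the first, with a median of 0.27, and 26 lower in the second, with a median of -0.24.

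The genes named from that list were chosen in ways that bear on their level in the combination, by likeness to Usp18 or by the difference of all arrays with IFNbeta, so they are not compared with each other. Of those most like Usp18, Cmpk2 was at 0.51 in IFNbeta against eGFP and at -0.81 in the combination against IFNbeta, Rsad2 at 0.53 and -0.73, and Ifit1 at 0.35 and -0.63. The 3 genes with the largest differences of all 10 arrays with IFNbeta from the 10 without were Irf7, which amplifies interferon production, at 0.50 (SE 0.14), Oas2, which makes the activator of RNase L, at 0.47 (SE 0.17), and Zbp1, a sensor of Z-form nucleic acids, at 0.40 (SE 0.11). Their limma adjusted p-values were 0.75, 0.959 and 0.685. Against IFNbeta alone the combination was at -0.04 in Zbp1, -0.05 in Oas2 and -0.28 in Irf7. The choice of these genes used the combination arrays, so no conclusion is drawn from these values. Zbp1 was at 10.14 ± 0.17 in p19Arf+IFNbeta, 10.19 ± 0.34 in IFNbeta, 9.73 ± 0.31 in p19Arf and 9.80 ± 0.16 in eGFP tumors, and Oas2 at 10.66 ± 0.33 in p19Arf+IFNbeta, 10.71 ± 0.52 in IFNbeta, 10.31 ± 0.56 in p19Arf and 10.12 ± 0.28 in eGFP tumors (SD, n = 5 each).

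**Figure D4:**
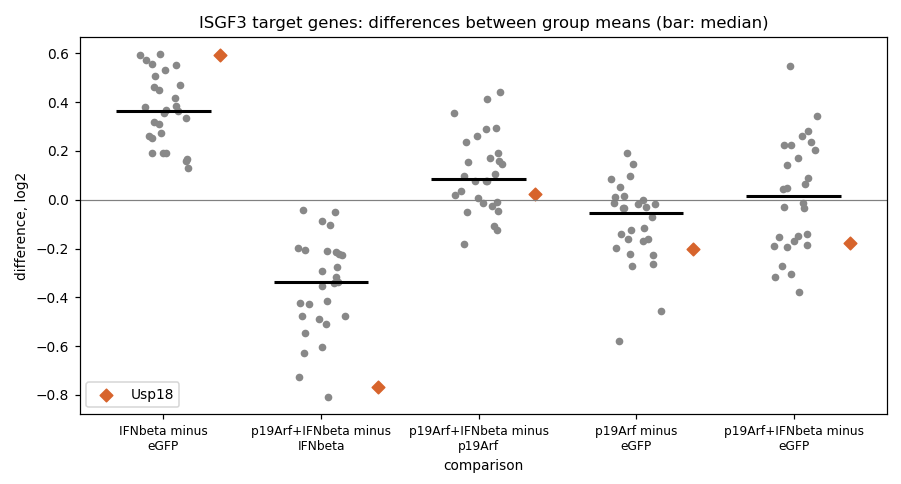
Differences between group means on the log2 scale (vertical axis) of the 28 measured ISGF3 target genes in 5 comparisons (horizontal axis). Grey points are genes, set apart sideways for legibility, black bars are their medians (0.37, -0.34, 0.09, -0.05 and 0.02 from left to right), and diamonds are Usp18. All 28 points lie above 0 in the first comparison and below 0 in the second.

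Other genes of interferon signalling gave no call either: 0 members of the remaining 6 lists passed over all genes in any of the 7 comparisons. Among 13 measured genes of other type I interferons, 13 had a lower mean in IFNbeta than in eGFP tumors (median -0.12) and 11 were higher in p19Arf than in eGFP (median 0.10), where 44.2% and 54.4% of all genes were higher. The genes of largest difference between arrays with and without IFNbeta were Ifna16 at -0.25, Ifnz at -0.23 and Ifna13 at -0.21. Group means ran from 4.93 to 5.26 for Ifna13, from 6.36 to 6.87 for Ifna16 and from 8.15 to 8.89 for Ifnz. Whether signals as low as the first 2 rose above background could not be judged. The mean array spread was 2.06 in p19Arf and 2.11 in eGFP tumors, and its part in these counts was not tested. The Ifna genes of this list are near-identical, so their probe sets can share targets. Without IFNbeta replicate 3 the count was 11 of 13 lower in IFNbeta than in eGFP.

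Receptors of the other interferons had small differences by IFNbeta. Between arrays with and without IFNbeta, Ifnlr1, the lambda receptor chain, was at -0.13, Ifngr1, the ligand-binding chain for interferon gamma, at 0.08, and Il10rb, shared by the lambda and interleukin-10 receptors, at 0.06. Il10rb was at 9.63 ± 0.42 in the combination, against 10.09 ± 0.23 in IFNbeta tumors. Of 6 other Janus kinase and STAT genes measured, 6 had a lower mean in p19Arf than in eGFP and 6 a lower mean in the combination than in IFNbeta tumors, with medians of -0.12 and -0.16, where 54.4% and 57.1% of all genes were higher. The part of the array spread in these counts was not tested. Stat4, the STAT of interleukin-12 signalling, was at 7.88 ± 0.45 in p19Arf+IFNbeta, 8.34 ± 0.22 in IFNbeta, 7.68 ± 0.29 in p19Arf and 8.17 ± 0.20 in eGFP tumors. Between arrays with and without IFNbeta it differed by 0.18, Stat6 by 0.10 and Jak2 by 0.06.

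Interferon regulatory factors had higher means in IFNbeta than in eGFP tumors in 7 of 7 measured genes, with a median difference of 0.10 (6 of 7 without IFNbeta replicate 3), where 44.2% of all genes were higher. Irf7 was at 10.10 ± 0.26 in p19Arf+IFNbeta, 10.37 ± 0.50 in IFNbeta, 9.65 ± 0.42 in p19Arf and 9.82 ± 0.16 in eGFP tumors. Irf1, a factor induced by interferon gamma as well, differed otherwise, at 11.08 ± 0.12 in p19Arf+IFNbeta, 10.76 ± 0.16 in IFNbeta, 10.78 ± 0.26 in p19Arf and 10.75 ± 0.16 in eGFP tumors. Irf5 was at 0.19 in both IFNbeta against eGFP and arrays with against arrays without IFNbeta. In the pathway that attaches the ubiquitin-like modifier removed by USP18, Herc6, the mouse ligase, was at 0.32 in IFNbeta against eGFP and at -0.39 in the combination against IFNbeta. Ube2l6, the conjugating enzyme, was at 0.23 and -0.32, and Uba7, the activating enzyme, at 0.09 and 0.38.

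Of 16 other inhibitors of JAK-STAT signalling, 10 had higher means in IFNbeta than in eGFP tumors (median 0.03) and 12 had lower means in p19Arf than in eGFP (median -0.06), where 44.2% and 54.4% of all genes were higher. Here too the part of the array spread was not tested. Socs3, which inhibits the kinases at cytokine receptors of the interleukin-6 family, was at 9.98 ± 0.15 in p19Arf+IFNbeta, 9.63 ± 0.21 in IFNbeta, 9.66 ± 0.12 in p19Arf and 9.67 ± 0.20 in eGFP tumors. Socs6 differed between arrays with and without IFNbeta by -0.24, and Ptprc, the CD45 phosphatase of leukocytes, by 0.19.

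Across the 20 arrays the 9 genes fell into pairs that moved together or apart. Of 36 pairs 9 passed by both Pearson and Spearman correlation with p-values adjusted over the 36. Ifnar2 went with Jak1 (Pearson 0.775, permutation p = 9e-05, adjusted p = 0.00162; Spearman 0.723, permutation p = 0.00044, adjusted p = 0.00744; 0.692 with the 2 arrays of most extreme Ifnar2 dropped). Stat2 went with Socs1 (Pearson 0.736, permutation p = 7e-05, adjusted p = 0.00162; Spearman 0.722, permutation p = 0.00043, adjusted p = 0.00744; 0.728 with the 2 arrays of most extreme Stat2 dropped). The 2 receptor chains went together (Pearson 0.668, permutation p = 0.00085, adjusted p = 0.0102; Spearman 0.71, permutation p = 0.00062, adjusted p = 0.00744; 0.544 with the 2 arrays of most extreme Ifnar1 dropped).

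Jak1 stood against Stat2 (Pearson -0.648, permutation p = 0.00239, adjusted p = 0.0129; Spearman -0.546, permutation p = 0.0137, adjusted p = 0.0493) and against Socs1 (Pearson -0.655, permutation p = 0.00156, adjusted p = 0.0112; Spearman -0.577, permutation p = 0.00872, adjusted p = 0.0392). With the 2 arrays of most extreme Jak1 level dropped these were -0.505 and -0.502. Irf9 went with Usp18 (Pearson 0.663, permutation p = 0.00155, adjusted p = 0.0112; Spearman 0.58, permutation p = 0.00794, adjusted p = 0.0392), with 0.526 without the 2 arrays farthest from the median of Irf9 and 0.444 for deviations from the group means. Ifnar2 went with its partner Usp18 (Pearson 0.588, permutation p = 0.00653, adjusted p = 0.0294; Spearman 0.635, permutation p = 0.00334, adjusted p = 0.0301), with 0.507 when the 2 arrays of most extreme Ifnar2 were dropped and 0.345 for deviations. The remaining pairs were Ifnar1 with Jak1 (Pearson 0.635, permutation p = 0.00251, adjusted p = 0.0129; Spearman 0.592, permutation p = 0.00719, adjusted p = 0.0392; 0.581 with the 2 arrays of most extreme Ifnar1 dropped) and Tyk2 with Stat2 (Pearson 0.579, permutation p = 0.00845, adjusted p = 0.0338; Spearman 0.605, permutation p = 0.00536, adjusted p = 0.0386; 0.509 with the 2 arrays of most extreme Tyk2 dropped). The pairs share libraries, and the array spread, which Jak1 and Ifnar2 followed at 0.915 and 0.879 and Socs1 at -0.582, is common to them. Its part in these pairs was not tested.

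**Figure D5:**
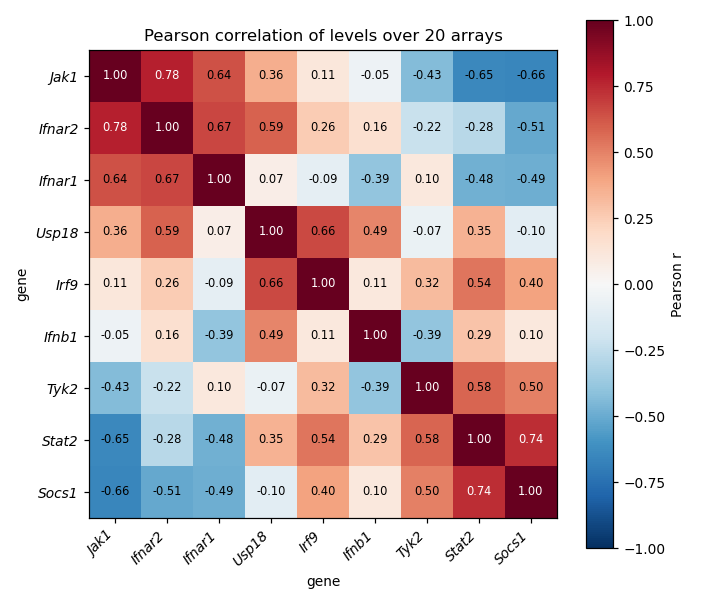
Pearson correlation of the log2 levels of each pair of the 9 genes (both axes) over 20 arrays, from -1 (blue) to 1 (red). Jak1, Ifnar2 and Ifnar1 form a block between 0.635 and 0.775, Tyk2, Stat2 and Socs1 a block between 0.503 and 0.736, and Jak1 lies between -0.43 and -0.655 with the genes of the second block.

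Macrophage markers moved with several of the genes. The score of 7 macrophage and monocyte markers was 10.53 to 11.23 on p19Arf+IFNbeta arrays, 10.70 to 11.22 on IFNbeta arrays, 10.36 to 11.16 on p19Arf arrays and 10.81 to 11.26 on eGFP arrays. It went up with Jak1 (Pearson 0.828, permutation p = 3e-05, adjusted p = 0.000594; Spearman 0.752, permutation p = 0.00034, adjusted p = 0.00374) and with Ifnar2 (Pearson 0.798, permutation p = 7e-05, adjusted p = 0.00099; Spearman 0.805, permutation p = 3e-05, adjusted p = 0.000742). It went down with Socs1 (Pearson -0.721, permutation p = 0.00026, adjusted p = 0.00257; Spearman -0.62, permutation p = 0.00409, adjusted p = 0.0238) and with Stat2 (Pearson -0.681, permutation p = 0.0011, adjusted p = 0.00681; Spearman -0.58, permutation p = 0.00822, adjusted p = 0.0372). With the 2 arrays of most extreme score dropped, these 4 correlations were 0.829, 0.72, -0.609 and -0.62. Ifnar1 also went up with the score, with a Pearson correlation of 0.698 (permutation p = 0.00055, adjusted p = 0.00454). Its Spearman's rho was 0.836 (permutation p = 2e-05, adjusted p = 0.000742), and Pearson's r was 0.895 with those 2 arrays dropped. The macrophage relations are among 99 computed, of which 21 passed both ways, and none of those 21 concerned Usp18 or Irf9. By Spearman alone Usp18 passed with the array spread (rho 0.618, permutation p = 0.00444, adjusted p = 0.0244) and with endothelium (rho 0.565, permutation p = 0.0102, adjusted p = 0.0375). Its Pearson correlations with these were 0.46 and 0.498 (permutation p = 0.0402 and 0.025, adjusted p = 0.117 and 0.0827). Other scores passed both ways too, such as proliferating cells with Ifnar1 (Pearson 0.836) and endothelium with Ifnar2 (0.773). Carcinoma epithelium did so with Ifnar1 (-0.764) and Ifnar2 (-0.675). Jak1 and Ifnar2 followed the array spread more closely than the macrophage score (Pearson 0.915 and 0.879). Jak1 went down with the carcinoma epithelium score (Pearson -0.815, permutation p = 2e-05, adjusted p = 0.000495; Spearman -0.782, permutation p = 0.0001, adjusted p = 0.00141; -0.7 with the 2 arrays of most extreme score dropped). The carcinoma epithelium score, 6.77 to 7.46, lay below the lowest array median of 7.49. Whether its markers rose above background could not be judged, so it is not read as a content of tumor cells. The part of cell content in the levels of these genes was not tested.

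Among the 8 genes with a listed promoter, Stat2 and Socs1 were the only ones whose promoters held the letters of an ISRE. Promoters, 250 bases before to 50 after a RefSeq start site of build GRCm38.p6, were listed for 8 of the 9 genes, the exception being Usp18, and Irf9 had 2. The ISRE core was searched on both strands as GAAA, any 2 bases and GAAA again, and 3.44% of the 32851 promoters in the table held it. The promoters of Stat2 and Socs1 are shown with each match in capitals, and the 2 matches of Socs1 overlap. Whether a match bears on the levels of these genes was not tested.
Stat2 (chr10:128270248-128270547, plus strand): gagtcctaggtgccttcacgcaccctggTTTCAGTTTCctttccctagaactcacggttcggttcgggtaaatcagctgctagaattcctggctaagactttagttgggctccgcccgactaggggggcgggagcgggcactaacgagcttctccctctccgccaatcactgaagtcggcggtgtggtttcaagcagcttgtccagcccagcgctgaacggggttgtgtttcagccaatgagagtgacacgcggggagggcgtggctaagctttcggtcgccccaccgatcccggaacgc
Socs1 (chr16:10785487-10785786, minus strand): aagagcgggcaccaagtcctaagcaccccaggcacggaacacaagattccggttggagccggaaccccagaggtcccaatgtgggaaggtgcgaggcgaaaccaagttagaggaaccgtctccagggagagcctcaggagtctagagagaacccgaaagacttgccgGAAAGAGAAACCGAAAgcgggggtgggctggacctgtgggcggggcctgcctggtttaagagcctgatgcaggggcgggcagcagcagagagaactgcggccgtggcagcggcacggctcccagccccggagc

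The promoters of the receptor chains each held 1 match of another element in these windows. The gamma-activated site (GAS), bound by STAT dimers, was searched as TTCNNNGAA, which reads the same on both strands, and 8.3% of the 32851 promoters held it. Ifnar1 and Ifnar2 were the members with a match, which is in capitals here.
Ifnar1 (chr16:91484965-91485264, plus strand): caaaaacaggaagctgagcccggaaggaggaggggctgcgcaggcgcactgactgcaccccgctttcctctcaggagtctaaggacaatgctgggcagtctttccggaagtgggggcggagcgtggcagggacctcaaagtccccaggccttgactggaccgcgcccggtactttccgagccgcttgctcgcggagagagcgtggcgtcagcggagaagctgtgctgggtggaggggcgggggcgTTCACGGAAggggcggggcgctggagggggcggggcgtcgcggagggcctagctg
Ifnar2 (chr16:91372533-91372832, plus strand): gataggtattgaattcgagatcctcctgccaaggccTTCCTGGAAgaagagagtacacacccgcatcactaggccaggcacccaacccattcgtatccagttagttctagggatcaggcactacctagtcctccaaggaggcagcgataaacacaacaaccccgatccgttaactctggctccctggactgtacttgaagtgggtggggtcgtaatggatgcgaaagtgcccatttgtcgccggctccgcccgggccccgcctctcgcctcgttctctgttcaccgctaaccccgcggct
A match describes letters in these windows and says nothing of binding in the tumors.

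The genes whose levels were most like those of the remaining members differed from one member to another. For Stat2 they were Helz2, Oas2 and Oas1b (Pearson 0.961, 0.946 and 0.917 over 20 arrays), of which the Oas genes belong to the antiviral synthetase family. For Irf9 they were Nop2, a nucleolar methyltransferase, Pvr, the poliovirus receptor homologue, and Casp8, the initiator caspase of death receptors (0.889, 0.863 and 0.856). For Socs1 they were Tepsin, Dennd4b and Rnf31, a subunit of the linear ubiquitin ligase (0.921, 0.91 and 0.902), and for Tyk2 they were Myo7a, Traf2 and Dna2 (0.891, 0.863 and 0.859). Ifnar1 was most like Kif3b, Otulinl and Tgfbr1 (0.884, 0.877 and 0.873), and Ifnar2 most like Peli1, Nrd1 and Zeb2 (0.932, 0.929 and 0.923). The arrays share their spread and tissue content, so these are descriptions of likeness.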

How the data were processed

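RNA of each tumor was isolated with Trizol and hybridised, after biotin labelling, to a 1-colour Affymetrix array, as the labels' protocols state. The deposited table holds log2 values of 35556 probe sets on 20 arrays (2.33 to 14.7, array medians 7.49 to 7.61); the log base is read from this range. How the authors summarised and normalized these log2 values is not stated, and the submitters' processing notes name Affymetrix Expression Console and GCOS. No normalization was added. The platform annotation, updated to GRCm38.p6 symbols, gave 1 symbol to 21789 probe sets and several to 1621, and left 12146 unnamed. The probe set of highest mean stood for each of 19938 genes, with no filter on low values. Genes with no row are not analysed here.

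Group means were fitted to all 20 arrays at once with limma 3.58.1 in R 4.3.3 (lmFit, eBayes; 16 residual and 6.06 prior degrees of freedom; 2-sided). Within each of 7 comparisons p-values were adjusted over all genes by Benjamini-Hochberg, with a threshold of 0.05. Exact 2-sided permutation tests of single genes (54 in all) are unadjusted, and correlations used 100000 permutations. The fit was tested on simulated data for IFNbeta against eGFP with 19938 genes: it recovered 93.9% of 98 genes changed by 1 on the log2 scale and 100% of 102 changed by 2. The number of arrays limits the precision. The genes, lists and markers were chosen with earlier results of these data known. The text names, from each list, the 3 genes with the largest difference between arrays with and without IFNbeta, and for each of the 9 genes the 3 of highest Pearson correlation, predicted genes left out. Alternatives were robust limma-trend, array weights, quantile normalization, median centring, genes above the median level only, averaged probe sets, the compared groups alone, the replicate number as a block, the array spread as a covariate, and each array left out. Those on the skin score, and list counts without IFNbeta replicate 3, were added after seeing the data.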

Additional observations from a re-analysis of the deposited data

Results flagged for a closer look

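Ifnb1 on the array of IFNbeta replicate 3 read 6.65, far above the other 4 arrays of its group, which ran from 6.03 to 6.20: its gap to the nearest of them was 0.72 of the range of the group, beyond the limit of 0.71 for 5 samples. It was the only such value among 36 groups of 5 arrays (9 genes in 4 groups). Chance alone flags about 1 group in 20, so 1 flag among 36 groups is no more than chance gives. The same array had the highest skin epidermis score of the series, 9.20, and the highest values of Stat2 and Usp18, 11.02 and 11.01.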

How the results depend on the processing

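The 9 genes gave 63 results, and in 1928 recomputed values 1809 kept their direction and side of the threshold, 113 turned direction and 6 newly passed; those that turned were small differences, and the cause was not tested unless said. With array weights 5 genes passed in IFNbeta against eGFP, 166 in the combination against eGFP, 1730 in the combination against IFNbeta (1 of the 9 genes) and 12 in arrays with against arrays without IFNbeta. In the combination against IFNbeta, median centring gave 1 gene, genes above the median level 1, the skin score as a covariate 3130 (2 of the 9), and leaving out the 2 arrays of highest skin score 1497 (1 of the 9). Leaving out each array in turn gave 0 to 84 genes in the combination against eGFP (84 without eGFP replicate 1) and 0 to 2351 in the combination against IFNbeta (2351 without IFNbeta replicate 3), with 0 to 2 of the 9 genes.

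The replicate numbers did not pair the arrays: correlations of deviations between same-numbered arrays ran from -0.624 to 0.657, and 3 of 20 arrays correlated best with their own number. With the replicate number as a block 0 genes passed, and Usp18 in the combination against IFNbeta had a limma adjusted p of 0.199.

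With array weights these turned: in IFNbeta against eGFP, Ifnb1 -0.0017, Ifnar1 0.021, Jak1 0.013 and Tyk2 -0.042; in p19Arf against eGFP, Tyk2 -0.025; in the combination against eGFP, Ifnar1 0.0095; in the combination against p19Arf, Ifnb1 -0.038, Ifnar1 0.034 and Usp18 -0.012; in arrays with against arrays without IFNbeta, Ifnb1 -0.02 and Ifnar1 0.027; in the interaction, Ifnar1 0.013 and Stat2 0.10. With the skin score as a covariate, IFNbeta against eGFP gave Ifnar1 0.0083 and Jak1 0.024. Without the 2 arrays of highest skin score it gave Ifnar1 0.014 and Jak1 0.096, and the interaction gave Ifnb1 0.0025, Stat2 0.071 and Irf9 -0.0039. Under quantile normalization Tyk2 was -0.011 in IFNbeta against eGFP, Ifnar1 0.074 and Socs1 0.027 in p19Arf against eGFP, Ifnar1 0.062, Ifnar2 0.0024 and Irf9 0.059 in the combination against eGFP, Ifnar1 0.11 in the combination against IFNbeta, and Ifnar1 0.038 and Ifnar2 0.056 in the interaction. With the array spread as covariate Ifnar1 was 0.12 and Stat2 -0.064 in p19Arf against eGFP, Ifnar1 0.10, Ifnar2 0.12 and Socs1 -0.041 in the combination against eGFP, Ifnar1 0.13, Stat2 -0.18 and Socs1 -0.0396 in the combination against IFNbeta, and Ifnar1 0.0094, Ifnar2 0.045 and Irf9 -0.0003 in the interaction. Median centring gave Irf9 -0.021 in the interaction.

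Ranges with each array left out in turn crossed 0 as follows. In IFNbeta against eGFP: Ifnb1 -0.0056 to 0.15, Ifnar1 -0.035 to 0.037, Jak1 -0.089 to 0.10 and Socs1 -0.075 to 0.065. In p19Arf against eGFP: Ifnar1 -0.044 to 0.024, Tyk2 -0.0009 to 0.16, Stat2 -0.037 to 0.21 and Socs1 -0.13 to 0.044. In the combination against eGFP: Ifnar1 -0.12 to 0.037 and Irf9 -0.052 to 0.0202. In the combination against IFNbeta: Ifnar1 -0.11 to 0.047 and Stat2 -0.035 to 0.22. In the combination against p19Arf: Ifnb1 -0.065 to 0.085, Ifnar1 -0.11 to 0.047, Jak1 -0.19 to 0.023 and Usp18 -0.074 to 0.13. With against without IFNbeta: Ifnar1 -0.0598 to 0.018 and Jak1 -0.10 to 0.0041. In the interaction: Ifnb1 -0.17 to 0.036, Ifnar1 -0.099 to 0.057, Ifnar2 -0.095 to 0.11, Jak1 -0.22 to 0.038, Tyk2 -0.012 to 0.14, Stat2 -0.17 to 0.11 and Irf9 -0.061 to 0.091. Probe signal against background could not be judged, since the table has no detection values.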
